A study of Xenopus laevis with 8 samples.

Results

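The comparison sets stage 12.5, a late gastrula, against stage 9, a late blastula, in ectoderm explants of Xenopus laevis. These stages are the ends of the sampled course of early epidermal patterning. Its members are 4 of the 8 libraries: stage 12.5 of experiments A and B, set against stage 9 of experiments A and B. They were chosen by the stage and the experiment letter in their titles, and libraries of the same letter were paired. The labels give wt as the genotype and control as the treatment for both stages, so by label the groups differ in stage alone, and no strain is named. Animal caps were dissected at stage 8, healed in saline and then kept in more dilute saline with an antibiotic, so later stage and longer culture cannot be told apart. The labels do not say what a letter stands for or how many explants went into a library. The p-values below therefore measure only the spread between the 8 libraries of the series, all of which entered the fit.

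The animal cap is the roof of the blastula. Its cells can still form derivatives of all germ layers, and in plain saline, where their own BMP signalling continues, they become epidermis. The epidermis of the frog embryo is a mucociliary epithelium of goblet cells, multiciliated cells, ionocytes and small secretory cells. The early embryo runs on RNA stored in the egg, and this store is degraded after the embryo starts its own transcription at the mid-blastula transition. Xenopus laevis is allotetraploid, and many genes have a copy on each of its subgenomes, called homeologs and marked .L and .S in the symbols.

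Poly-A selected RNA was sequenced without strand information. The libraries held 37446022 and 42615766 counts at stage 12.5, against 43914736 and 45511790 counts at stage 9, in the order experiment A and experiment B that is kept throughout. At least 1 count was found for 34183 and 34874 of the 51017 gene IDs at stage 12.5, against 31147 and 32325 at stage 9. Levels are given as CPM, a count divided by the library size, scaled by its TMM factor, and expressed per 1000000. Differences were tested by the quasi-likelihood method of edgeR. The fit used all 8 libraries, with the experiment letter as a block. P-values were adjusted by Benjamini and Hochberg's method over all 28490 genes tested, and genes with adjusted values below 0.05 are those called. A stage 12.5 or stage 9 library with 3 counts or fewer for a gene was treated as at the floor, which corresponds to 0.0980 and 0.0755 CPM at stage 12.5, against 0.0626 and 0.0604 CPM at stage 9. A fold change given as at least a value sets the mean CPM of the other stage against the mean floor. A single experiment can therefore fall short of it. In whole explants, fewer cells of a type and less RNA per cell cannot be told apart, nor can a shorter poly(A) tail and fewer transcripts under poly-A selection. Values of overlapping or antisense genes, and of closely similar copies, are uncertain.

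Most genes differed between the ends of the course. Of the 28490 genes tested, 69.1% were called, with 10338 higher and 9354 lower at stage 12.5, or 36.3% and 32.8%. Called differences of at least 1 on the log2 scale numbered 15865 (55.7%), with 8426 higher (29.6%) and 7439 lower (26.1%). Differences of at least 3 were called for 4593 higher and 2067 lower genes. The median log2 fold change of all genes tested was 0.14, with the 5th and 95th percentiles at -3.44 and 6.07; with library size as the only scaling the median was -0.18. The CPM ranges of both stages did not overlap for 80.1% of the genes tested, with stage 12.5 above for 42.3% and stage 9 above for 37.8%. Genes called higher held 72.2% and 69.5% of all counts at stage 12.5, against 27.9% and 27.6% at stage 9. Genes called lower held 14.3% and 16.1% at stage 12.5, against 54.8% and 55.3% at stage 9. The sign of the change was the same in experiments A and B for 99.7% of the called genes and for 88.2% of all genes tested.

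**Figure D1:**
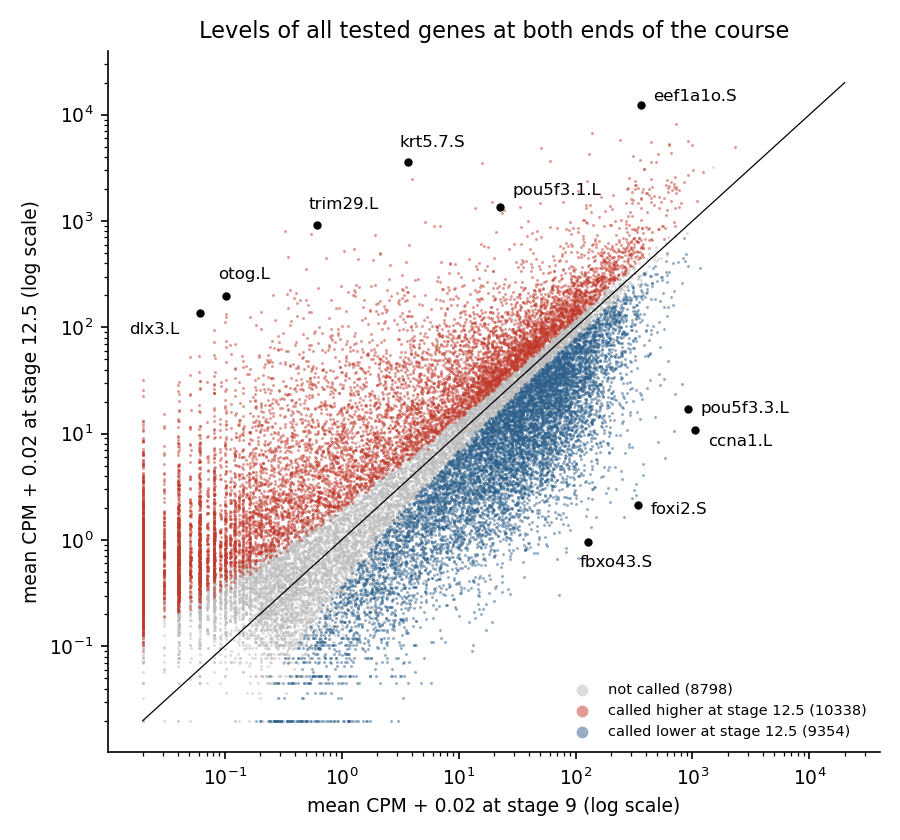
Mean CPM of each tested gene at stage 12.5 (vertical axis) and at stage 9 (horizontal axis), both on a log scale with 0.02 CPM added, over 2 libraries each; red points were called higher (10338 genes), blue points lower (9354) and grey points were not called (8798), and the line marks equal levels. Named points such as krt5.7.S and trim29.L lie far above the line, and pou5f3.3.L, ccna1.L and foxi2.S far below it.

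The steepest rises with more than 3 counts in every stage 9 library included keratin genes and the transcription factor gene gata2.S. The tripartite motif gene trim29.L had 1080.3 and 742 CPM at stage 12.5, against 0.752 and 0.443 CPM at stage 9 (log2 fold change 10.57 ± 0.19, adjusted p = 1.2e-07). Keratin genes krt12.S and krt5.7.S followed, with 840.0 and 671 CPM at stage 12.5, against 0.501 and 0.543 CPM at stage 9 for krt12.S (10.49 ± 0.34). For krt5.7.S the levels were 4586 and 2589 CPM at stage 12.5, against 4.36 and 3.02 CPM at stage 9 (9.90 ± 0.23). Stage 12.5 was above stage 9 in both experiments for each of these genes, with no overlap. This follows from their choice as the largest rises, and stage 12.5 lay above without overlap for 42.3% of all genes tested. Values after ± are approximate standard errors throughout, taken as the size of the log2 fold change over the square root of its quasi-likelihood F value. The keratin-named gene krt.L (10.50 ± 0.53), the G protein subunit gene gnb3.S (9.79 ± 0.34), the fatty acid elongase gene elovl3.L (9.76 ± 0.29) and nxpe2.L (9.75 ± 0.28) were among the 8 largest rises. The eighth was gata2.S, a zinc finger transcription factor of ventral ectoderm, with 458 and 244 CPM at stage 12.5, against 0.668 and 0.282 CPM at stage 9 (log2 fold change 9.51 ± 0.41, adjusted p = 5.5e-07).

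The steepest falls with more than 3 counts in every stage 12.5 library included regulators known from the egg and the cleavage stages. The Emi2 gene fbxo43.S, an inhibitor of the anaphase-promoting complex that holds the egg in metaphase, had 0.718 and 1.16 CPM at stage 12.5, against 103 and 152 CPM at stage 9 (log2 fold change -7.09 ± 0.35, adjusted p = 9.3e-07). The B-type cyclin gene ccnb5.L had 2.74 and 2.52 CPM at stage 12.5, against 259 and 403 CPM at stage 9 (-7.04 ± 0.87), with a wider error than its neighbours. The largest fall was in btg3.S, of the antiproliferative BTG family, with 0.392 and 0.176 CPM at stage 12.5, against 54.3 and 91.3 CPM at stage 9 (log2 fold change -8.06 ± 0.51, adjusted p = 2.7e-06). For zfp36l2.1.S, whose product destabilises mRNAs with AU-rich elements, the log2 fold change was -7.36 ± 0.28. The ubiquitin ligase subunit gene fbxo30.L (-6.78 ± 0.41) and both copies of foxi2, described below, were also among the 8 largest falls.

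The abundant messengers changed as well. At stage 12.5 the most abundant gene with a gene name was eef1a1o.S, a translation elongation factor 1 alpha, with 13879 and 10611 CPM at stage 12.5, against 364 and 360.2 CPM at stage 9 (log2 fold change 5.07 ± 0.13, adjusted p = 1.5e-07). The hyaluronan synthase gene has1.S had 8284 and 5274 CPM at stage 12.5, against 152 and 126 CPM at stage 9 (5.58 ± 0.17). Both copies of the cold-inducible RNA-binding protein gene, cirbp.L and cirbp.S (3.49 ± 0.14 and 3.65 ± 0.09), and the acidic nuclear phosphoprotein gene anp32c.S (2.61 ± 0.12) were the other 3 of the top 5. At stage 9 the most abundant gene with a gene name was smad4.1.S, with 4381 and 1988 CPM at stage 12.5, against 1899 and 1104 CPM at stage 9. This gene was not called (log2 fold change 1.08 ± 0.86, adjusted p = 0.284), and its value at stage 11.5 in experiment B, 30984 CPM against 2942 CPM in experiment A, stands apart. It was called without that library (adjusted p = 0.000235), without the stage 11.5 library of experiment A (adjusted p = 0.000274) and in a fit of the 4 libraries of stages 12.5 and 9 alone (adjusted p = 0.00019). Next at stage 9 came slbp.L, the histone mRNA stem-loop binding protein gene, which fell to 382 and 339 CPM at stage 12.5, against 1169 and 1167 CPM at stage 9 (-1.70 ± 0.13). The cyclin gene ccna1.L fell to 10.2 and 11.6 CPM, against 992 and 1116 CPM at stage 9 (-6.59 ± 0.36). The ornithine decarboxylase gene odc1.S and ccdc50.L were abundant at both stages and higher at stage 12.5 (0.49 ± 0.09 and 1.58 ± 0.12). The call of odc1.S was lost without the block (adjusted p = 0.0615) and with library size as the only scaling (adjusted p = 0.109).

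Gene lists by function were then read against all genes tested, of which 36.3% were called higher and 32.8% lower at a median log2 fold change of 0.14. Both homeologs of a gene count as members. The largest rise or fall of a list is given among called members with a mean of at least 5 CPM at the higher stage and more than 3 counts in each library of the lower one. Members named below, other than the largest called rise and fall of each list and the marker genes, were picked as examples after their values were seen. The test filter worked by stage over all 8 libraries, so genes expressed only between the ends of the course could also be tested. With the 4 libraries alone 26479 genes were tested, against 28490 as reported. A tested gene can therefore have few counts at both ends. The mesoderm marker tbx6.S was tested with 4 and 4 counts at stage 12.5, against 2 and 0 at stage 9. Untested members were not always low in every library, as tp63.L had 60 and 4 counts at stage 9.

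**Figure D2:**
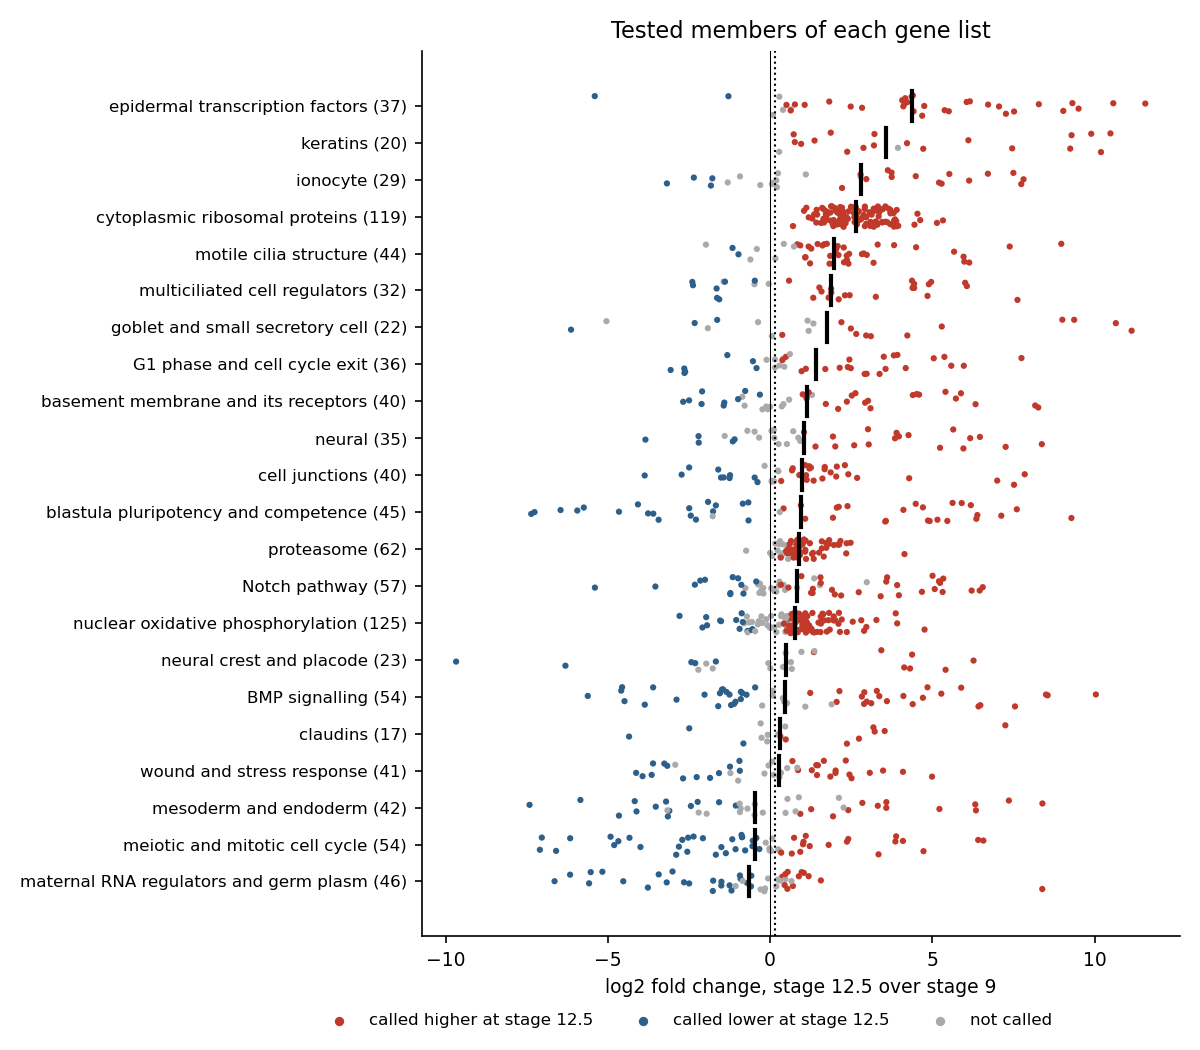
Log2 fold change, stage 12.5 over stage 9, of every tested member of each gene list (points, spread vertically for legibility), with the number tested in parentheses; red members were called higher, blue lower and grey not called. Thick bars mark list medians, from 4.36 for epidermal transcription factors to -0.65 for maternal RNA regulators and germ plasm, and the dotted line marks the median of all tested genes, 0.14; fitted values of members at the floor at one stage depend on the prior count and are not bounds.

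The blastula pluripotency and competence genes split. Of 45 members, all tested, 24 were called higher and 19 lower, with a median of 0.95, which was 0.62 without stage 9 A, 0.53 without stage 12.5 A and 0.62 with library size as the only scaling. The pou5f3 genes, the frog counterparts of mammalian OCT4, show the split within one family. Both copies of pou5f3.3, the maternal form, fell: pou5f3.3.L had 17.2 and 16.8 CPM at stage 12.5, against 918 and 899.6 CPM at stage 9 (log2 fold change -5.74 ± 0.38, adjusted p = 3.5e-06). The gene pou5f3.3.S had 8.36 and 8.21 CPM at stage 12.5, against 496 and 521 CPM at stage 9 (-5.94 ± 0.42). In contrast, pou5f3.1.L had 1563 and 1133 CPM at stage 12.5, against 24.7 and 20.2 CPM at stage 9 (log2 fold change 5.9 ± 0.21, adjusted p = 3.0e-07), and pou5f3.1.S had a log2 fold change of 4.49 ± 0.15. Also higher was pou5f3.2.L, with 1418 and 1017 CPM at stage 12.5, against 342 and 244 CPM at stage 9 (2.06 ± 0.18). Its homeolog pou5f3.2.S had 255 and 214 CPM at stage 12.5, against 189 and 162 CPM at stage 9 (log2 fold change 0.41 ± 0.14, adjusted p = 0.027), a call lost without the block (adjusted p = 0.0514), with library size as the only scaling (adjusted p = 0.563) and without stage 12.5 A (adjusted p = 0.206), stage 9 B (0.16), stage 10.5 A (0.0539) or stage 10.5 B (0.0619). The summed level of the 10 blastula ectoderm markers (pou5f3.1, pou5f3.2, pou5f3.3, foxi2 and sox3) was 4189 and 3369 CPM at stage 12.5, against 3463 and 3408 CPM at stage 9. The sums lay close together while 4 of the markers were called higher and 6 lower.

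The largest fall in the list was in foxi2.S, a maternal forkhead activator of early ectoderm genes, with 2.22 and 1.96 CPM at stage 12.5, against 365 and 324 CPM at stage 9 (log2 fold change -7.36 ± 0.22, adjusted p = 1.7e-07). Its homeolog foxi2.L had 0.718 and 4.23 CPM at stage 12.5, against 245 and 358 CPM at stage 9 (-7.26 ± 0.50). The Nodal-pathway Smad partner foxh1.L had 36.4 and 26.9 CPM at stage 12.5, against 429.6 and 429 CPM at stage 9 (-3.76 ± 0.20). The zinc finger gene zic2.L had 12.8 and 8.96 CPM at stage 12.5, against 269.8 and 282 CPM at stage 9 (-4.66 ± 0.27). Both copies of geminin, an inhibitor of replication licensing that also keeps cells uncommitted, fell (-2.49 ± 0.19 for gmnn.L and -2.44 ± 0.18 for gmnn.S). The SoxB1 gene sox3.S fell less, to 305 and 362 CPM at stage 12.5, against 570.3 and 621 CPM at stage 9 (-0.84 ± 0.10). The largest rise was in ventx1.2.L, one of the Ventx homeobox repressors that act downstream of BMP, with 91.6 and 119 CPM at stage 12.5, against 0.251 and 0.0805 CPM at stage 9 (log2 fold change 9.28 ± 0.34, adjusted p = 3.2e-07). The let-7 antagonist gene lin28a.L had 202 and 282 CPM at stage 12.5, against 0.898 and 2.64 CPM at stage 9 (7.12 ± 0.38), whereas its relative lin28b.S was lower (-1.91 ± 0.26). The Kruppel-like factor gene klf17.L (5.16 ± 0.23), the BMP-responsive inhibitor genes id3.L and id3.S (4.11 ± 0.31 and 4.71 ± 0.32) and myc.L (3.55 ± 0.15) were higher at stage 12.5.

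Genes of the epidermal transcription factor list mostly rose. Of 38 members, 37 were tested, and 31 were called higher and 2 lower, with a median of 4.36. The sum over the list was 8225 and 6419 CPM at stage 12.5, against 1098 and 1172 CPM at stage 9. These numbers include the tripartite motif gene trim29.L, described above, which had the largest rise of the list within the stated limits. For the homeobox gene dlx3.L, a BMP target of non-neural ectoderm, the levels were 164 and 106 CPM at stage 12.5, against 0.0418 and 0.0402 CPM at stage 9, which is at least 2194-fold higher at stage 12.5 against a floor of 3 counts per library. Its homeolog dlx3.S had 263 and 158 CPM at stage 12.5, against 0.167 and 0.604 CPM at stage 9 (log2 fold change 9.03 ± 0.47, adjusted p = 1.1e-06). The grainyhead-like gene grhl3.L, known from surface ectoderm and barrier formation, had 1045 and 961 CPM at stage 12.5, against 43.0 and 35.3 CPM at stage 9 (4.69 ± 0.12). The AP-2 gene tfap2a.L had 409 and 282 CPM at stage 12.5, against 13.6 and 19.8 CPM at stage 9 (4.36 ± 0.26). The differentiation factor gene znf750.L had 276 and 276 CPM at stage 12.5, against 15.7 and 10.8 CPM at stage 9 (4.40 ± 0.16). In each of these genes both stage 12.5 libraries lay above both stage 9 libraries, which held for 42.3% of all genes tested. The largest fall was in klf4.L, a Kruppel-like factor, with 0.784 and 0.503 CPM at stage 12.5, against 22.0 and 32.9 CPM at stage 9 (log2 fold change -5.40 ± 0.40, adjusted p = 6.0e-06). The regulator of basal keratinocytes tp63 was scarce: tp63.S_LOC399036 had 3.33 and 2.64 CPM at stage 12.5, against 6.098 and 0.865 CPM at stage 9 and was not called (log2 fold change 0.09 ± 0.60, adjusted p = 0.905), and tp63.L had 0.196 and 0.0503 CPM at stage 12.5, against 1.25 and 0.0805 CPM at stage 9, and was not tested. The stage 12.5 and stage 9 values of tp63.S_LOC399036 overlap, with stage 9 of experiment A the highest, and the gene was called higher without stage 9 A (log2 fold change 1.57, adjusted p = 0.0131) and lower without stage 9 B (-0.91, adjusted p = 0.0498).

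Most tested keratin genes were higher at stage 12.5. Of 45 keratin genes, 20 were tested, and 18 of these were called higher and 0 lower, with a median of 3.58, or 3.04 with the 4 members at the floor at stage 9 set at their bounds and 2.35 with no filter on low counts. Summed over the family, keratins had 13409 and 7893 CPM at stage 12.5, against 890.4 and 741.8 CPM at stage 9. Keratins of simple epithelia were the most abundant of the family at stage 9: krt8.L had 2612 and 1414 CPM at stage 12.5, against 417 and 336 CPM at stage 9 (2.38 ± 0.16) and krt18.L had 679.7 and 359 CPM at stage 12.5, against 141 and 134 CPM at stage 9 (1.87 ± 0.20). In contrast, krt5.7.L had 3107 and 1818 CPM at stage 12.5, against 4.26 and 3.64 CPM at stage 9 (9.25 ± 0.25). For krt12.L, with 0 and 2 counts at stage 9, the level was 36.2 and 20.9 CPM at stage 12.5, at least 464-fold higher. Experiment A was above experiment B at stage 12.5 in each of these keratins. The 10 epidermis markers (krt5.7, dlx3, tp63, grhl3 and tfap2a, with both copies) summed to 10608 and 6810 CPM at stage 12.5, against 113 and 126.9 CPM at stage 9, and 8 of the 9 tested were called higher.

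**Figure D3:**
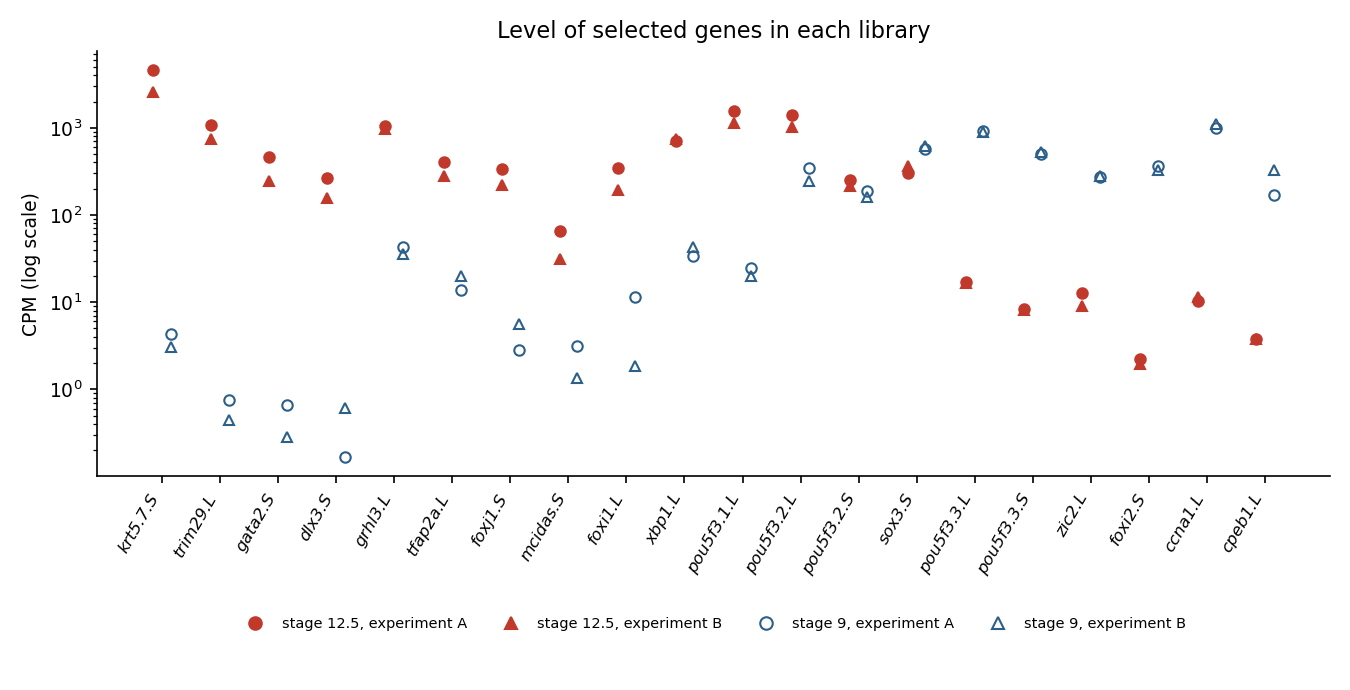
CPM on a log scale of 20 genes in each library; filled red symbols are stage 12.5 and open blue symbols stage 9, with circles for experiment A and triangles for experiment B. From krt5.7.S to pou5f3.2.L the red symbols lie above the blue ones, from sox3.S to cpeb1.L below them, and pou5f3.2.S and sox3.S differ least.

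Cell adhesion genes rose in part. Of 41 junction genes, 40 were tested, and 24 were called higher and 10 lower, with a median of 0.99. E-cadherin had the largest rise through its S copy: cdh1.S had 559.6 and 425 CPM at stage 12.5, against 2.23 and 2.01 CPM at stage 9 (log2 fold change 7.85 ± 0.15, adjusted p = 1.2e-07), while cdh1.L fell to 3.79 and 3.02 CPM, against 20.9 and 24.1 CPM at stage 9 (-2.73 ± 0.30). The C-cadherin gene cdh3.L, the adhesion molecule of the cleaving embryo, was higher at stage 12.5 (1.11 ± 0.12), with 591 and 752 CPM at stage 12.5, against 288 and 331 CPM at stage 9. Its homeolog cdh3.S was not called, with 222 and 219 CPM at stage 12.5, against 202 and 202 CPM at stage 9 (log2 fold change 0.12 ± 0.11, adjusted p = 0.338). Desmosomal linker genes were among the rises, with desmoplakin dsp.L at 517 and 466 CPM at stage 12.5, against 71.5 and 81.3 CPM at stage 9 (2.68 ± 0.14). The cornified-envelope plakin gene ppl.L had 14.95 and 7.25 CPM at stage 12.5, against 0.0835 and 0.0805 CPM at stage 9 (7.0 ± 0.66). The adhesion gene epcam.S was abundant at both stages, with 2186 and 2158 CPM at stage 12.5, against 559.6 and 633 CPM at stage 9 (1.87 ± 0.09). The largest fall was in the desmosomal cadherin gene dsc3.S, with 2.38 and 4.38 CPM at stage 12.5, against 47.3 and 52.9 CPM at stage 9 (-3.87 ± 0.38). The tight junction genes cgn.S, tjp1.S and marveld2.S also fell (-2.49 ± 0.22, -1.60 ± 0.16 and -1.43 ± 0.13), while cgn.L and marveld2.L rose (2.04 ± 0.18 and 1.08 ± 0.19).

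Among 28 claudins, which form the tight junction strands, 17 were tested, with 8 called higher and 3 lower and a median of 0.32. This median was -0.01 with library size as the only scaling, with 6 called lower, and -0.06 with no filter on low counts, and 0.07 with at least 1 CPM in both libraries of a stage. It was 0.06, 0.09, 0.10 and 0.08 without stage 9 A, 10.5 A, 11.5 A and 12.5 A, and 0.11 without stage 11.5 B. The abundant claudin gene cldn4.L had 1385 and 1047 CPM at stage 12.5, against 161 and 108 CPM at stage 9 (3.18 ± 0.13). The gene cldn4.S had 358 and 480.1 CPM at stage 12.5, against 24.3 and 51.2 CPM at stage 9 (3.53 ± 0.19). The largest fall was in cldn5.L, at low levels, with 0.196 and 0.403 CPM at stage 12.5, against 5.597 and 6.36 CPM at stage 9 (-4.35 ± 0.41). Basement membrane components and their receptors were called higher in 21 and lower in 9 of 40 tested members, of 44, with a median of 1.12. The laminin receptor gene itga6.L had 122 and 88.2 CPM at stage 12.5, against 0.418 and 0.262 CPM at stage 9 (log2 fold change 8.26 ± 0.18, adjusted p = 1.3e-07). The hemidesmosomal collagen gene col17a1.L had 65.5 and 20.6 CPM at stage 12.5, against 0.0835 and 0.181 CPM at stage 9 (8.17 ± 0.59). Integrin alpha 3, itga3.L (4.52 ± 0.21), and the laminin gamma genes lamc1.L and lamc1.S (2.1 ± 0.18 and 2.37 ± 0.14) were higher. Both dystroglycan copies were lower, the larger fall being dag1.S with 24.2 and 20.4 CPM at stage 12.5, against 94.7 and 96.9 CPM at stage 9 (-2.11 ± 0.14). Fibronectin, fn1.S, was abundant and not called, with 480.1 and 352 CPM at stage 12.5, against 517 and 459 CPM at stage 9 (log2 fold change -0.24 ± 0.17, adjusted p = 0.236), but it was called lower with library size as the only scaling (adjusted p = 0.00606).

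Regulators of multiciliated cells were mostly higher at stage 12.5. Of 34 members, 32 were tested, and 22 were called higher and 7 lower, with a median of 1.88. The largest rise was in mcidas.L_LOC108718385, the multicilin gene that starts the multiciliated program, with 111 and 61.5 CPM at stage 12.5, against 0.459 and 0.443 CPM at stage 9 (log2 fold change 7.62 ± 0.60, adjusted p = 8.2e-06). Its upstream relative gmnc.L had 101 and 58.4 CPM at stage 12.5, against 1.07 and 6.86 CPM at stage 9 (4.41 ± 0.70). The forkhead gene foxj1.S, needed for motile cilia, had 341 and 220.4 CPM at stage 12.5, against 2.86 and 5.61 CPM at stage 9 (log2 fold change 6.06 ± 0.36, adjusted p = 2.1e-06). The genes foxn4.L (6.01 ± 0.36), myb.S (4.89 ± 0.28) and rfx2.S (1.58 ± 0.12), transcription factors of the same program, were higher too. Experiment A was above experiment B at stage 12.5 for mcidas.L_LOC108718385, gmnc.L and foxj1.S. No stage 9 value of these genes reached a stage 12.5 value, which held for 42.3% of all genes tested. The cyclin O gene ccno.L had 222 and 105 CPM at stage 12.5, against 33.04 and 56.5 CPM at stage 9 (1.88 ± 0.40), and its log2 fold change was 1.05 without stage 12.5 A. The falls included e2f4.L and e2f4.S (-1.63 ± 0.18 and -1.65 ± 0.19), whose product is the partner of multicilin, deup1.L_ccdc67.L (-2.38 ± 0.23), a deuterosome component, and the centriole assembly gene stil.L, with 44.4 and 35.8 CPM at stage 12.5, against 160.4 and 263 CPM at stage 9 (-2.40 ± 0.24).

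Structural genes of motile cilia rose from low levels. Of 47 members, 44 were tested, and 36 were called higher and 2 lower, with a median of 1.98. Their sum was 688 and 603.9 CPM at stage 12.5, against 271.2 and 247.3 CPM at stage 9. The doublet microtubule gene cfap52.L had the highest level, with 123 and 89.4 CPM at stage 12.5, against 1.504 and 1.85 CPM at stage 9 (log2 fold change 5.96 ± 0.21, adjusted p = 3.1e-07). The outer arm dynein intermediate chain gene dnai2.S had 18.0 and 24.6 CPM at stage 12.5, against 0.125 and 0.483 CPM at stage 9 (6.14 ± 0.41). The radial spoke gene rsph1.L had 15.6 and 13.1 CPM at stage 12.5, against 0.0418 and 0.563 CPM at stage 9 (5.67 ± 0.64). The larger of the 2 falls was in the dynein heavy chain gene dnah5.S, with 4.41 and 4.56 CPM at stage 12.5, against 11.6 and 8.55 CPM at stage 9 (-1.16 ± 0.24), and the other fall was in the dynein assembly gene dnaaf1.S (-0.97 ± 0.16). The preassembly factor gene dnaaf2.L, abundant at both stages, had 91.1 and 83.1 CPM at stage 12.5, against 74.4 and 81.1 CPM at stage 9 (log2 fold change 0.16 ± 0.12, adjusted p = 0.26).

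Ionocytes regulate ions and pH in the frog skin. Of 36 ionocyte genes, 29 were tested, and 15 were called higher and 4 lower. The median of 2.79 was 2.32 with the 5 members at the floor at stage 9 set at their bounds, 1.73 in a fit of the 4 libraries alone and 0.33 over the members with at least 1 CPM in both libraries of a stage. The ionocyte regulator foxi1.L had 348 and 195 CPM at stage 12.5, against 11.3 and 1.85 CPM at stage 9 (log2 fold change 5.52 ± 0.58, adjusted p = 4.8e-05). The gene foxi1.S had 98.6 and 69.4 CPM at stage 12.5, against 1.25 and 0.362 CPM at stage 9 (6.71 ± 0.49). The nuclear receptor gene esrrg.S, at the floor at stage 9, had 18.7 and 10.8 CPM at stage 12.5, at least 239.9-fold higher. The transcription factor gene ubp1.L had 37.5 and 14.8 CPM at stage 12.5, against 0.480 and 0.885 CPM at stage 9 (5.21 ± 0.54). Proton pump subunits divided: the cell type restricted subunit genes atp6v0d2.L and atp6v1c2.L were low but higher at stage 12.5 (5.29 ± 0.55 and 3.74 ± 0.51), while the widely expressed atp6v1a.L had 30.5 and 28.6 CPM at stage 12.5, against 27.9 and 27.6 CPM at stage 9 and was not called (log2 fold change 0.09 ± 0.15, adjusted p = 0.616). The sodium bicarbonate transporter gene slc4a4.S had the largest fall, with 1.24 and 0.831 CPM at stage 12.5, against 10.8 and 7.89 CPM at stage 9 (-3.18 ± 0.28). The carbonic anhydrase gene ca12.L (-2.35 ± 0.15) and the anion exchanger gene slc4a1.L (-1.78 ± 0.23) were lower as well. The regulator dmrt2.L had 4.28 and 2.09 CPM at stage 12.5, against 0.981 and 17.4 CPM at stage 9 and was not called (log2 fold change -0.93 ± 1.05, adjusted p = 0.45), with stage 9 of experiment B above both stage 12.5 libraries. It was called lower without stage 9 A (log2 fold change -2.51, adjusted p = 0.0028) and higher without stage 9 B (1.65, adjusted p = 0.0453).

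Secretory cell genes were called higher in 12 and lower in 3 of 22 tested members, of 27, with a median of 1.77. The mucin-like gene otog.L, of the goblet cells, had 255 and 137 CPM at stage 12.5, against 0.125 and 0.0402 CPM at stage 9 (log2 fold change 11.14 ± 0.63, adjusted p = 1.5e-06). The calpain gene capn8.S had 229 and 223 CPM at stage 12.5, against 0.397 and 0.282 CPM at stage 9 (log2 fold change 9.37 ± 0.24, adjusted p = 1.4e-07), and the disulfide isomerase gene agr2.S, which acts in mucin folding, had 47.3 and 22.1 CPM at stage 12.5, against 0.0418 and 0.0805 CPM at stage 9 (9.01 ± 0.47). The secretory pathway regulator xbp1.L was present at both stages, with 701 and 737 CPM at stage 12.5, against 34.2 and 42.6 CPM at stage 9 (4.23 ± 0.16). The lectin gene itln1.L had no counts at stage 9 and 5.42 and 4.53 CPM at stage 12.5, at least 80.9-fold higher. The stress sensor gene ern2.S, whose product splices xbp1 RNA, had the largest fall, with 1.18 and 0.554 CPM at stage 12.5, against 56.0 and 59.0 CPM at stage 9 (log2 fold change -6.14 ± 0.41, adjusted p = 3.5e-06). Small secretory cell genes were low: foxa1.L had 0.849 and 0.302 CPM at stage 12.5, against 2.55 and 2.88 CPM at stage 9 (-2.32 ± 0.54). The serotonin synthesis gene tph1.S had 1.99 and 1.66 CPM at stage 12.5, against 0.230 and 0.402 CPM at stage 9 (2.49 ± 0.44).

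BMP signalling genes changed in both directions, with 24 called higher and 22 lower of 54 tested members, of 56, and a median of 0.46, which was 0.28 without stage 9 A, 0.13 without stage 12.5 A and 0.14 with library size as the only scaling. Among ligands, bmp7.1.L had 27.3 and 22.6 CPM at stage 12.5, against 0 and 0.0402 CPM at stage 9, at least 406-fold higher at stage 12.5. The ligand genes bmp7.2.L, with 1136 and 906 CPM at stage 12.5, against 126 and 108 CPM at stage 9 (3.12 ± 0.13), and bmp4.S, with 161 and 115 CPM at stage 12.5, against 12.6 and 13.9 CPM at stage 9 (3.37 ± 0.17), were higher as well. Both bmp2 copies were lower, with 1.08 and 0.604 CPM at stage 12.5, against 36.9 and 45.3 CPM at stage 9 for bmp2.S (log2 fold change -5.62 ± 0.35, adjusted p = 2.3e-06). The largest rise was in the sizzled gene szl.L, an inhibitor that BMP induces, which had 221 and 137 CPM at stage 12.5, against 0.334 and 0.624 CPM at stage 9 (log2 fold change 8.50 ± 0.33, adjusted p = 3.6e-07). The decoy receptor gene bambi.L had 414 and 265 CPM at stage 12.5, against 34.4 and 34.0 CPM at stage 9 (3.29 ± 0.17). The inhibitory Smad gene smad7.S had 73.6 and 46.6 CPM at stage 12.5, against 4.51 and 5.39 CPM at stage 9 (3.60 ± 0.25). Receptor and transducer genes were among the falls. The type II receptor genes acvr2b.L and acvr2b.S (-1.45 ± 0.21 and -1.34 ± 0.15), the type I receptor gene bmpr1a.L (-1.11 ± 0.13) and the transducer gene smad1.L, with 99.4 and 75.9 CPM at stage 12.5, against 259.7 and 248 CPM at stage 9 (-1.55 ± 0.12), were lower. The co-Smad gene smad4.1.L was higher, with 213 and 189 CPM at stage 12.5, against 3.34 and 3.42 CPM at stage 9 (5.89 ± 0.17). The dorsal antagonist genes were scarce: chrd.L had 3.89 and 1.96 CPM at stage 12.5, against 0.480 and 0.282 CPM at stage 9. The gene nog.L had 0.131 and 0.151 CPM at stage 12.5, against 0.501 and 3.86 CPM at stage 9.

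Notch pathway genes were called higher in 27 and lower in 12 of 57 tested members, of 60, with a median of 0.83, or 0.50 with library size as the only scaling. Notch signalling selects which inner-layer cells of the epidermis become multiciliated cells and ionocytes. Among ligands, dll1.L had 93.9 and 72.3 CPM at stage 12.5, against 7.71 and 6.18 CPM at stage 9 (3.58 ± 0.19). The gene dlc.L had 70.6 and 64.6 CPM at stage 12.5, against 0.940 and 3.02 CPM at stage 9 (5.24 ± 0.39). Among receptors, notch2.S, at low levels, had 11.98 and 8.66 CPM at stage 12.5, against 0.125 and 0.362 CPM at stage 9 (log2 fold change 5.34 ± 0.48, adjusted p = 1.8e-05), while the more abundant notch1.S had 173 and 138 CPM at stage 12.5, against 106 and 104 CPM at stage 9 (0.57 ± 0.19). The call of notch1.S was lost with library size as the only scaling (adjusted p = 0.245) and without stage 12.5 A (0.277), stage 9 A (0.0762) or stage 9 B (0.103). Of the targets, nrarp.S had 209 and 182 CPM at stage 12.5, against 73.6 and 60.05 CPM at stage 9 (1.55 ± 0.12), and hes7.1.L had the largest fall of the list, with 4.51 and 1.08 CPM at stage 12.5, against 82.9 and 113 CPM at stage 9 (log2 fold change -5.40 ± 0.53, adjusted p = 3.1e-05). The inhibitor gene numb.S fell to 13.6 and 19.9 CPM, against 72.5 and 73.2 CPM at stage 9 (-2.15 ± 0.17). The nuclear effector genes rbpj.L and rbpj.S were lower (-0.89 ± 0.15 and -1.15 ± 0.25).

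Messengers known from the oocyte fell in part. Of 49 maternal RNA regulators and germ plasm genes, 46 were tested, and 23 were called lower and 12 higher, with a median of -0.65. The deadenylation adaptor gene btg4.L had 0.522 and 1.11 CPM at stage 12.5, against 69.6 and 95.9 CPM at stage 9 (log2 fold change -6.64 ± 0.44, adjusted p = 3.4e-06). The cytoplasmic polyadenylation factor gene cpeb1.L had 3.75 and 3.75 CPM at stage 12.5, against 170.2 and 326 CPM at stage 9 (log2 fold change -6.16 ± 1.08, adjusted p = 0.00103). The translational repressor genes patl2.L and zar1l.L fell (-5.17 ± 0.42 and -3.43 ± 0.24), as did the Balbiani body gene velo1.L (-2.65 ± 0.23). Other members of the list did not pass the test, among them zar1.S, with 24.6 and 14.7 CPM at stage 12.5, against 20.7 and 13.5 CPM at stage 9 (log2 fold change 0.19 ± 0.15, adjusted p = 0.278), and pabpc1l.L, with 13.0 and 13.1 CPM at stage 12.5, against 15.5 and 13.6 CPM at stage 9 (log2 fold change -0.15 ± 0.17, adjusted p = 0.452). The germ plasm genes divided. The largest rise under these limits was in dazl.L, with 11.3 and 9.89 CPM at stage 12.5, against 3.15 and 3.84 CPM at stage 9 (log2 fold change 1.56 ± 0.35, adjusted p = 0.0038). The gene ddx4.L had 145 and 188 CPM at stage 12.5, against 72.8 and 73.1 CPM at stage 9 (1.19 ± 0.14). The genes dnd1.L (-1.75 ± 0.31) and grip2.L (-2.49 ± 0.43) were lower, and nanos1.L was lower and scarce, with 0 and 0.151 CPM at stage 12.5, against 0.459 and 0.764 CPM at stage 9 (-3.01 ± 0.98). The 5 germ plasm markers summed to 161.4 and 204.1 CPM at stage 12.5, against 91.5 and 102 CPM at stage 9. The number of members called higher was 6 with library size as the only scaling and 7 without stage 9 A.

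Cell cycle genes changed in both directions. Of 54 meiotic and mitotic genes, all tested, 29 were called lower and 18 higher, with a median of -0.48, or -0.80 with library size as the only scaling. The mitotic cyclin gene ccnb1.S had 23.9 and 34.7 CPM at stage 12.5, against 801 and 818 CPM at stage 9 (log2 fold change -4.80 ± 0.25, adjusted p = 1.2e-06). The meiotic kinase gene mos.L had 9.76 and 6.50 CPM at stage 12.5, against 176 and 148 CPM at stage 9 (-4.33 ± 0.17). In contrast, the cyclin gene ccnb3.S had 199 and 137 CPM at stage 12.5, against 2.84 and 1.23 CPM at stage 9 (log2 fold change 6.41 ± 0.21, adjusted p = 2.6e-07), and the polo-like kinase gene plk2.L had the largest rise, with 330.3 and 284 CPM at stage 12.5, against 4.55 and 2.03 CPM at stage 9 (log2 fold change 6.57 ± 0.32, adjusted p = 8.6e-07). The kinase gene cdk1.S had 125 and 82.4 CPM at stage 12.5, against 5.78 and 5.97 CPM at stage 9 (4.09 ± 0.22). The phosphatase gene cdc25b.S had 304 and 184 CPM at stage 12.5, against 13.6 and 18.9 CPM at stage 9 (3.88 ± 0.27). Cyclins ccnb2.L and ccnb1.2.L stayed abundant but lower, at 482 and 361 CPM at stage 12.5, against 821 and 907 CPM at stage 9 for ccnb2.L (-1.06 ± 0.16).

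Genes of G1 phase and of cell cycle exit were called higher in 22 and lower in 7 of 36 tested members, of 37, with a median of 1.40. The first cell cycles of the embryo have no G1 phase. The largest rise was in the p53 target cyclin gene ccng1.L, with 955 and 987 CPM at stage 12.5, against 8.52 and 1.85 CPM at stage 9 (log2 fold change 7.75 ± 0.52, adjusted p = 3.7e-06). The G1 cyclin gene ccnd1.L had 15.6 and 19.1 CPM at stage 12.5, against 0.167 and 0.382 CPM at stage 9 (5.97 ± 0.29). The CDK inhibitor gene cdkn1a.L had 129.8 and 102 CPM at stage 12.5, against 2.94 and 2.62 CPM at stage 9 (log2 fold change 5.37 ± 0.20, adjusted p = 3.6e-07). The pocket protein gene rbl1.L (5.04 ± 0.15) and the antiproliferative gene btg1.L (3.81 ± 0.14) were also higher. The largest fall was in ccng2.L, with 6.69 and 8.03 CPM at stage 12.5, against 57.8 and 65.5 CPM at stage 9 (-3.06 ± 0.18), and the G1 cyclin gene ccnd2.S was lower (-1.32 ± 0.16).

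Families with a form known from oocytes or eggs and a later or somatic counterpart were compared form by form. Over 13 families the egg forms comprised 21 tested genes, of which 10 were called lower and 7 higher. Over 14 families the counterparts comprised 22 tested genes, of which 13 were called higher and 8 lower. These include slbp.L and slbp.S, both called lower, of a family for which no egg form was matched. Over all genes tested, 36.3% were called higher and 32.8% lower. The shares of egg forms called higher and of counterparts called lower lay near these. A change of form was plain for the replicative helicase subunit MCM3: mcm3.L had 9.66 and 18.8 CPM at stage 12.5, against 82.0 and 86.3 CPM at stage 9 (-2.61 ± 0.23), and its zygotic form zmcm3.L had 465 and 325 CPM at stage 12.5, against 9.96 and 6.76 CPM at stage 9 (log2 fold change 5.56 ± 0.15, adjusted p = 1.5e-07). For MCM6 the later forms mcm6.2.L and mcm6.2.S rose (3.65 ± 0.19 and 3.22 ± 0.15), while mcm6.L had 48.1 and 85.5 CPM at stage 12.5, against 63.6 and 94.9 CPM at stage 9 and was not called (log2 fold change -0.27 ± 0.17, adjusted p = 0.179), though it was with library size as the only scaling (-0.58, adjusted p = 0.0216). For the Wee1 kinase, wee2.L was lower, with 14.2 and 12.5 CPM at stage 12.5, against 222 and 204 CPM at stage 9 (-4.0 ± 0.19). Its homeolog wee2.S was lower too, with 45.7 and 38.2 CPM at stage 12.5, against 256 and 292 CPM at stage 9 (-2.71 ± 0.15). The counterpart wee1.S was higher, with 47.6 and 43.1 CPM at stage 12.5, against 21.2 and 23.7 CPM at stage 9 (1.03 ± 0.20). The summed wee2 copies, at 59.9 and 50.8 CPM, were still above wee1.S at stage 12.5. Among Foxi factors both foxi2 copies were lower and both foxi1 copies higher, with the values above.

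In other families both forms moved the same way, or 1 did not pass the test. Both cyclin A1 copies were lower, but ccna2.L had 717 and 513 CPM at stage 12.5, against 605 and 575 CPM at stage 9 and was not called (log2 fold change 0.03 ± 0.12, adjusted p = 0.815), and ccna2.S was lower (-1.36 ± 0.13). With library size as the only scaling ccna2.L was called lower (adjusted p = 0.0428). The egg linker histone gene h1foo.S was still abundant, with 307 and 324 CPM at stage 12.5, against 472 and 479 CPM at stage 9 (-0.59 ± 0.11, or -0.91 with library size as the only scaling). The gene h1foo.L had 20.5 and 19.1 CPM at stage 12.5, against 306 and 237 CPM at stage 9 (log2 fold change -3.77 ± 0.14, adjusted p = 3.6e-07). The only counterparts compared, h1f0.L and h1f0.S, were lower too (-1.35 ± 0.19 and -2.30 ± 0.27). Other somatic linker histones were not compared. In the nucleoplasmin family npm1.L was higher (2.06 ± 0.11), and npm2.L and npm2.S differed little (0.54 ± 0.15 and 0.37 ± 0.15). The call of npm2.L was lost without stage 12.5 B (adjusted p = 0.0897) or stage 9 A (0.1) and with library size as the only scaling (0.277). The call of npm2.S was lost without any 1 of the 8 libraries (adjusted p between 0.0519 and 0.238) and without the block (0.519). Both TATA-binding protein forms were lower, with tbp.L at 5.35 and 3.90 CPM at stage 12.5, against 98.1 and 110.2 CPM at stage 9 (-4.52 ± 0.37) and tbpl2.L at 0.555 and 0.503 CPM at stage 12.5, against 7.23 and 6.48 CPM at stage 9 (-3.68 ± 0.36). The elongation factor gene eef1a1o.S, named for the oocyte, rose along with eef1a1.L, which had 4976 and 3504 CPM at stage 12.5, against 154 and 108 CPM at stage 9 (5.02 ± 0.13). In the Y-box family the egg copy ybx2.S was called higher, with 93.3 and 69.1 CPM at stage 12.5, against 59.2 and 57.8 CPM at stage 9 (log2 fold change 0.47 ± 0.17, adjusted p = 0.0324). The somatic Y-box gene ybx1.S (2.21 ± 0.20), the poly(A)-binding protein gene pabpc1.S (1.72 ± 0.12) and the cap-binding protein gene eif4e.L (1.07 ± 0.14) were higher. Their egg counterparts ybx2.L (-0.06 ± 0.12, adjusted p = 0.673) and pabpc1l.L were not called, except that ybx2.L was lower with library size as the only scaling (adjusted p = 0.0297), and eif4e1b.S changed by 0.45 ± 0.12, a call lost with library size as the only scaling (adjusted p = 0.444), without the block (0.0627), and without stage 12.5 B (0.0737) or stage 9 A (0.078).

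**Figure D4:**
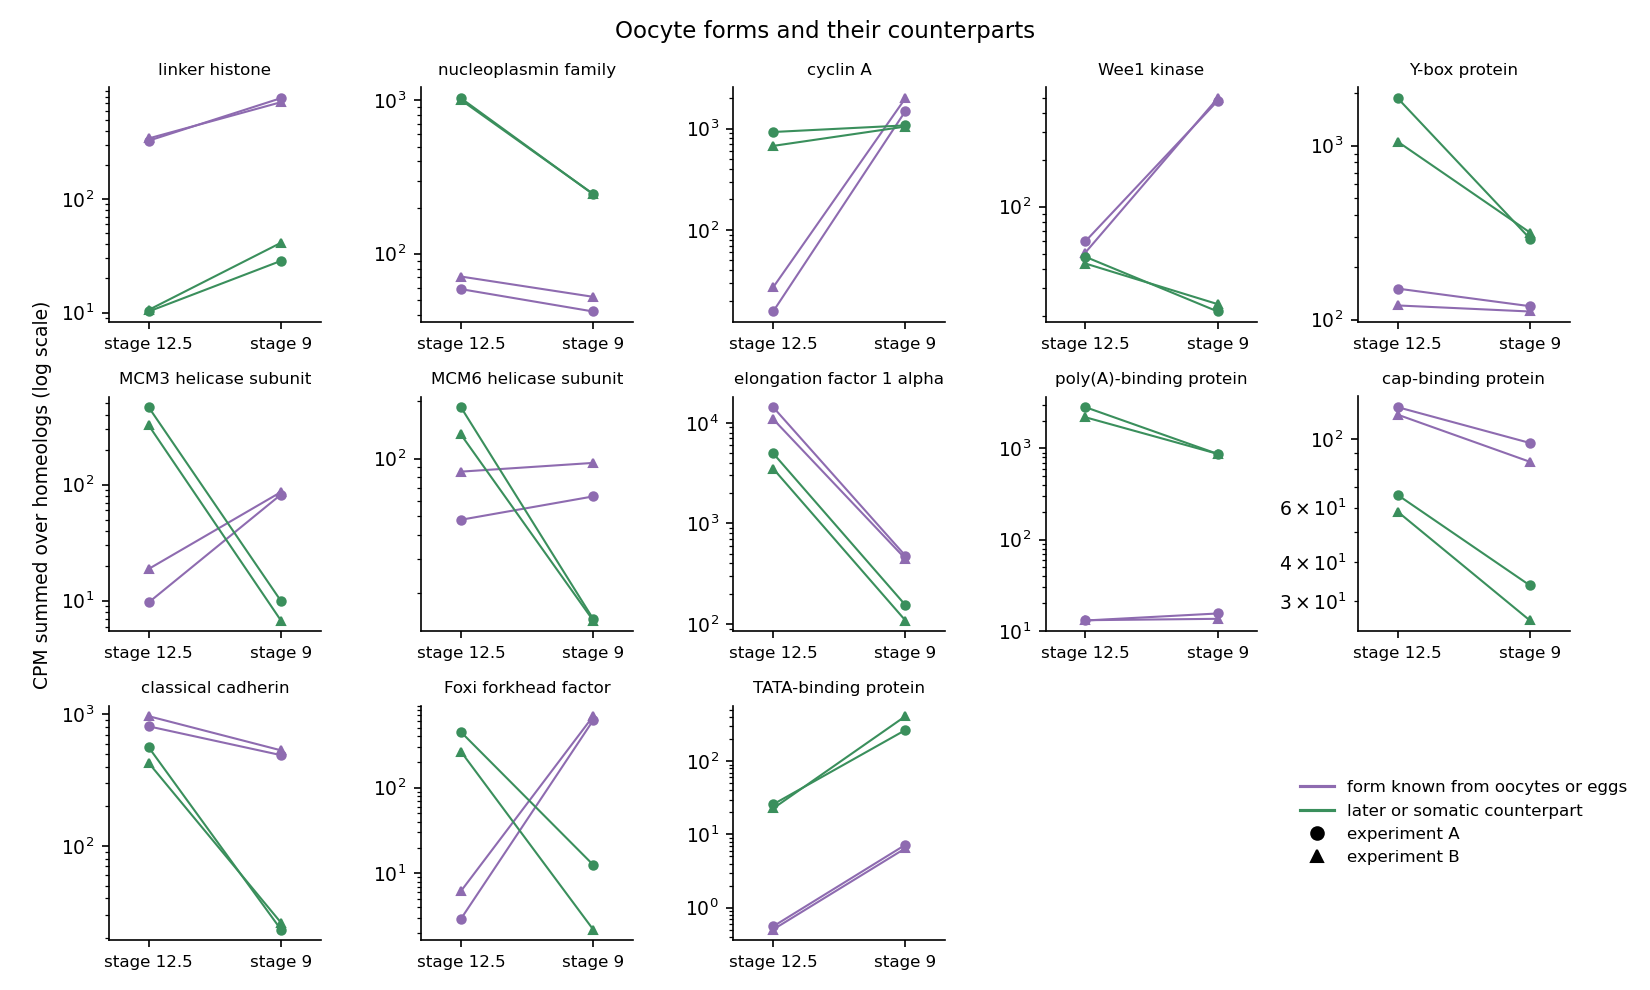
CPM on a log scale, summed over homeologs, of forms known from oocytes or eggs (purple) and of later or somatic counterparts (green) in 13 families, at stage 12.5 (left) and stage 9 (right), with circles for experiment A and triangles for experiment B. The lines cross for cyclin A, MCM3, MCM6 and the Foxi factors. They run the same way for cyclin A, the linker histones compared (h1foo and h1f0), elongation factor 1 alpha and the TATA-binding proteins. The same holds for the nucleoplasmin family, the Y-box and cap-binding proteins and the classical cadherins.

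Genes of protein synthesis and turnover and of respiration rose broadly. All 119 tested genes of cytoplasmic ribosomal proteins, of 122, were called higher, with a median of 2.64, or 2.61 with the 2 members at the floor set at their bounds. Their sum was 10855 and 9279 CPM at stage 12.5, against 1909 and 1871 CPM at stage 9. The largest rise among members with at least 5 CPM was in rps21.S, with 50.9 and 41.2 CPM at stage 12.5, against 1.13 and 1.15 CPM at stage 9 (log2 fold change 5.33 ± 0.22, adjusted p = 4.6e-07), and the smallest was in rpl24.S (0.70 ± 0.15), whose call was lost with library size as the only scaling (adjusted p = 0.0815). Proteasome subunit genes were called higher in 49 and lower in 0 of 62 tested, of 63, with a median of 0.88, and with library size as the only scaling 38 were called higher, with a median of 0.56. Among them, psmd14.L, the deubiquitinase of the lid, had 15.1 and 17.3 CPM at stage 12.5, against 1.13 and 0.744 CPM at stage 9 (log2 fold change 4.14 ± 0.30, adjusted p = 5.3e-06). Nuclear genes of oxidative phosphorylation were called higher in 84 and lower in 13 of 125 tested, of 127, with a median of 0.77. With library size as the only scaling 61 were called higher and 18 lower, with a median of 0.44. The complex I gene ndufa8.L had 55.5 and 51.8 CPM at stage 12.5, against 2.46 and 1.55 CPM at stage 9 (log2 fold change 4.76 ± 0.20, adjusted p = 5.2e-07). The largest fall was in cox5b.2.L, with 2.94 and 3.57 CPM at stage 12.5, against 22.0 and 23.2 CPM at stage 9 (-2.79 ± 0.30), and both succinate dehydrogenase subunit D copies fell (-1.04 ± 0.22 for sdhd.L and -1.94 ± 0.21 for sdhd.S).

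Markers of other lineages were read to check the tissue label. The labels name epidermis as the tissue at both stages, whereas krt5.7 and dlx3 were below 5 CPM at stage 9 and the 10 epidermis markers came to the low sums given above. The 9 mesoderm markers summed to 3.92 and 27.4 CPM at stage 12.5, against 20.2 and 13.8 CPM at stage 9, with 2 called in each direction, and both copies of msgn1 had 0 counts in the 4 libraries. Stage 12.5 B stood above stage 12.5 A through wnt8a.L, with 1.37 and 11.6 CPM at stage 12.5, against 0.501 and 2.57 CPM at stage 9, and t.S, with 1.24 and 9.64 CPM at stage 12.5, against 9.90 and 3.40 CPM at stage 9. The 12 endoderm markers summed to 21.7 and 19.9 CPM at stage 12.5, against 47.1 and 33.3 CPM at stage 9, with 4 called in each direction. The 7 blood and muscle markers summed to 2.29 and 4.58 CPM at stage 12.5, against 0.104 and 0.181 CPM at stage 9, and 5 of 5 tested were called higher at levels under 3 CPM. The 8 neural crest markers summed to 4.11 and 4.66 CPM at stage 12.5, against 16.5 and 23.1 CPM at stage 9. Of 6 tested, 2 were called in each direction, and sox10.L had 0 counts in the 4 libraries. Most of the neural crest sum at stage 9 was foxd3.L, at 14.2 and 18.1 CPM. Beside the epidermal markers these sums are small at stage 12.5, and their part in the results was not tested.

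Neural markers stood above these sums. The 10 neural markers summed to 160 and 168.4 CPM at stage 12.5, against 32.8 and 46.9 CPM at stage 9, with 7 of 9 tested called higher and 1 lower. In the wider neural list 18 of 35 tested members, of 41, were called higher and 5 lower, with a median of 1.04. The median was 1.64 without stage 9 A, and the number lower was 3 without stage 9 B, without stage 12.5 B or without the block, and 8 with library size as the only scaling. The RNA-binding protein gene elavl3.L had 62.1 and 74.1 CPM at stage 12.5, against 0.731 and 0.805 CPM at stage 9 (log2 fold change 6.47 ± 0.20, adjusted p = 2.0e-07). The adhesion gene ncam1.L had 31.8 and 24.3 CPM at stage 12.5, against 0.710 and 0.764 CPM at stage 9 (5.24 ± 0.24). The zinc finger gene myt1.L had 65.4 and 64.8 CPM at stage 12.5, against 4.26 and 4.06 CPM at stage 9 (3.97 ± 0.19), and otx2.L, a gene of the anterior ectoderm, had 36.9 and 10.8 CPM at stage 12.5, against 0.0418 and 0.0805 CPM at stage 9 (8.37 ± 0.62). The proneural gene neurog2.S had the largest fall, with 0.261 and 0.705 CPM at stage 12.5, against 7.33 and 6.38 CPM at stage 9 (-3.84 ± 0.50). Neural plate genes were not raised alike: sox2.L was higher (1.94 ± 0.24), zic1.L was not called, with 22.2 and 22.7 CPM at stage 12.5, against 15.6 and 26.1 CPM at stage 9 (log2 fold change 0.13 ± 0.21, adjusted p = 0.604), and sox11.S was lower (-1.09 ± 0.21).

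In the list of mesoderm and endoderm genes, 13 of 42 tested members, of 58, were called in each direction, with a median of -0.47. Under these limits the homeobox gene bix1.1.L had the largest fall, with 0.196 and 0.151 CPM at stage 12.5, against 10.5 and 9.58 CPM at stage 9 (log2 fold change -5.85 ± 0.66, adjusted p = 7.1e-05), and the muscle regulator myod1.L had 0.588 and 0.227 CPM at stage 12.5, against 7.58 and 6.26 CPM at stage 9 (-4.12 ± 0.53). The largest rise among members with at least 5 CPM was in gata5.S, with 4.31 and 6.95 CPM at stage 12.5, against 0.961 and 1.09 CPM at stage 9 (2.41 ± 0.39). The number called higher was 5 without stage 12.5 B, 8 without stage 9 B, 8 without the block and 6 with the 4 libraries alone. The median was -0.80 with library size as the only scaling and -0.77 with the 4 libraries alone. With at least 1 CPM in both libraries of a stage, 5 of 22 members were called higher and 12 lower, with a median of -1.17. In the list of neural crest and placode genes 7 were called higher and 5 lower of 23 tested, of 27, with a median of 0.48 that was -0.39 without stage 12.5 A, 0.19 without stage 9 A, 0.99 without stage 12.5 B and 0.95 without stage 9 B. It was 0.15 with library size as the only scaling and 0.78 with at least 1 CPM in both libraries of a stage. The crest gene foxd3.L fell to 0.261 and 0.151 CPM, against 14.2 and 18.1 CPM at stage 9 (log2 fold change -6.31 ± 0.45, adjusted p = 5.0e-06), while the neural border gene pax3.L had 3.298 and 11.03 CPM at stage 12.5, against 0.0835 and 0.0805 CPM at stage 9 (6.27 ± 0.46).

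Wound and stress genes were read because explants are cut before culture. Of 46 members, 41 were tested, and 17 were called higher and 13 lower, with a median of 0.29. It was -0.04 with library size as the only scaling, -0.14 without stage 12.5 A, 0.66 without stage 12.5 B, 0.07 without stage 9 A and 0.43 without stage 9 B. The largest fall was in fosb.S, which had 0.849 and 0.856 CPM at stage 12.5, against 14.99 and 14.99 CPM at stage 9 (log2 fold change -4.13 ± 0.29, adjusted p = 4.9e-06). The zinc finger gene egr1.L had 0.914 and 1.01 CPM at stage 12.5, against 9.42 and 15.1 CPM at stage 9 (-3.65 ± 0.39). The gene fos.S had 8.55 and 4.46 CPM at stage 12.5, against 33.3 and 81.1 CPM at stage 9 (-3.17 ± 0.48). Experiment B was above experiment A at stage 9 for egr1.L and fos.S. The mRNA decay gene zfp36.S had the largest rise, with 31.9 and 36.9 CPM at stage 12.5, against 1.15 and 1.01 CPM at stage 9 (4.99 ± 0.18). The heat shock cognate gene hspa8.S had 1972 and 1568 CPM at stage 12.5, against 208 and 209 CPM at stage 9 (3.07 ± 0.12). The part of wounding in other results was not tested.

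A set of genes was present at one end of the course alone. With 3 counts or fewer in both libraries of one stage and at least 1 CPM in both libraries of the other, 399 genes were silent at stage 9 and 33 at stage 12.5. Of the 399, 36 reached a mean of 10 CPM at stage 12.5, and 145 had no count at all at stage 9. Of the 33, 1 reached 10 CPM at stage 9, and 5 had no count at stage 12.5. A gene name rather than a LOC symbol was available for 207 of the 399 and for 18 of the 33, and the genes below are among these. After dlx3.L, the named gene with the highest level at stage 12.5 was the calcium channel gene trpv5.L. It had 28.6 and 35.8 CPM and no counts at stage 9, at least 523-fold higher. Next came krt12.L and bmp7.1.L, given above, and the transcription factor gene onecut1.2.S (at least 381-fold), the galectin gene lgals4.L (at least 380.3-fold), the fucosyltransferase gene fut6.S (at least 363-fold) and the lysophosphatidic acid receptor gene lpar3.S (at least 329-fold). For lgals4.L the levels of the experiments differed, at 36.4 and 10.4 CPM at stage 12.5, against 0.0209 and 0.0402 CPM at stage 9. At the other end, the calcium channel regulator gene cracr2b.S had 0.0653 and 0.0755 CPM at stage 12.5, against 15.2 and 10.9 CPM at stage 9, at least 151-fold lower at stage 12.5. The endothelin gene edn3.L had 0.0653 and 0.0503 CPM at stage 12.5, against 5.095 and 4.97 CPM at stage 9, at least 58.0-fold lower. The remaining 6 of the 8 named genes highest at stage 9 were myocd.S (at least 66.3-fold lower), nfkb1.S (42.4), nr4a2.L (36.1), klhl26.L (33.6), sh3tc2.L (30.8) and foxd3.S (30.5).

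More homeolog pairs changed in the same direction than in opposite ones. Of 4783 pairs with both copies tested, 1087 (22.7%) were called higher in both, 1372 (28.7%) lower in both and 420 (8.78%) in opposite directions. In 1464 pairs (30.6%) 1 copy was called, and in 440 (9.20%) neither. Over all genes tested, 36.3% were called higher and 32.8% lower. How much agreement these shares alone would give was not worked out. Besides cdh1, pairs with large opposite changes, picked after their values were seen, include the homeobox gene meis1: meis1.L had 13.0 and 10.2 CPM at stage 12.5, against 0.0209 and 0.282 CPM at stage 9 (6.21 ± 0.63). The gene meis1.S had 0.229 and 0.252 CPM at stage 12.5, against 2.99 and 7.48 CPM at stage 9 (-4.35 ± 0.52). For limd2, limd2.L had 5.03 and 6.44 CPM at stage 12.5, against 0.209 and 0.644 CPM at stage 9 (3.77 ± 0.44). The gene limd2.S had 2.84 and 5.61 CPM at stage 12.5, against 56.7 and 57.6 CPM at stage 9 (-3.77 ± 0.30). For pced1a, pced1a.L had 0.849 and 0.503 CPM at stage 12.5, against 16.3 and 24.1 CPM at stage 9 (-4.92 ± 0.43). The gene pced1a.S had 24.9 and 16.5 CPM at stage 12.5, against 1.36 and 0.945 CPM at stage 9 (4.16 ± 0.19). In all 3 pairs the stage ranges of each copy were apart, as for 80.1% of all genes tested. Within each experiment the copy that was higher at stage 12.5 was the lower one at stage 9. The stage 12.5 ranges of the limd2 copies overlap, and the copies of a pair were not tested against each other.

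**Figure D5:**
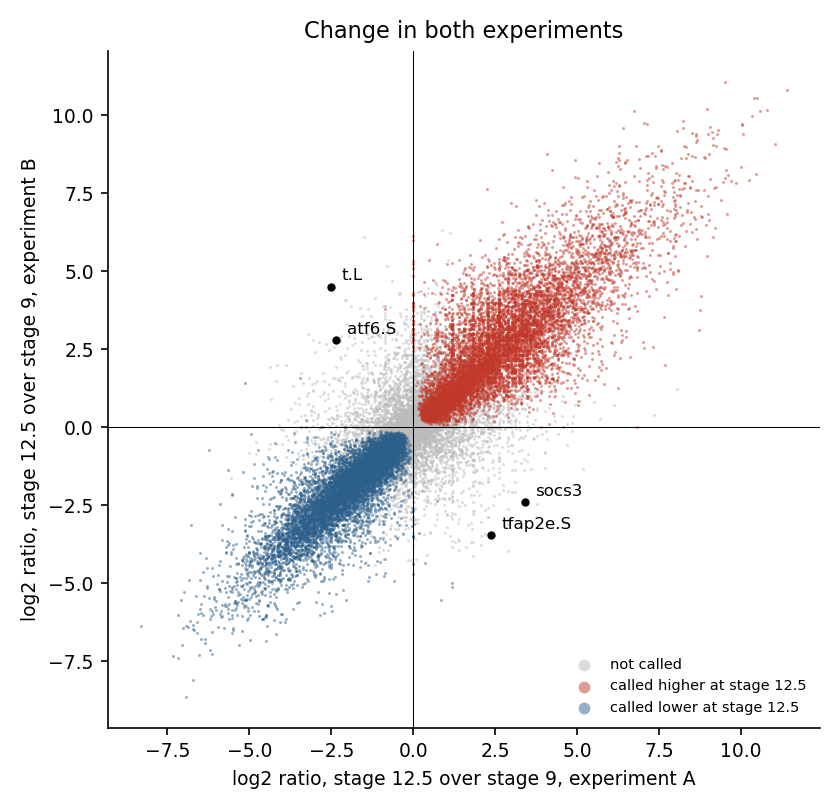
Log2 ratio of stage 12.5 over stage 9 in experiment B (vertical axis) against the same ratio in experiment A (horizontal axis) for each tested gene, computed from CPM with a prior count of 2; red genes were called higher, blue lower and grey not called. Called genes lie in the upper right and lower left, and the named genes are among the 326 that moved by at least 1 in opposite directions.

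Large changes in opposite directions were limited to a small set of genes, as the plot of the ratios of both experiments shows. The sign of the change was the same in both experiments for 88.2% of all genes tested. Of the 28490 genes tested, 326 moved by at least 1 on the log2 scale in opposite directions in experiments A and B, and 4 of these were called, all lower: sema3b.L, alg11.S, gpr83.L and LOC108696212. Each was high in 1 stage 9 library alone, as for sema3b.L, with 1.83 and 0.101 CPM at stage 12.5, against 20.7 and 0 CPM at stage 9 (adjusted p = 0.0354). The cytokine signalling inhibitor gene socs3 had 8.95 and 6.47 CPM at stage 12.5, against 0.794 and 34.4 CPM at stage 9 and was not called (log2 fold change -0.98 ± 1.3, adjusted p = 0.521). The Ap-2 family gene tfap2e.S had 1.502 and 2.57 CPM at stage 12.5, against 0.251 and 28.8 CPM at stage 9 and was not called (log2 fold change -1.77 ± 1.219, adjusted p = 0.224). It was called higher without stage 9 B (2.26, adjusted p = 0.0167), and lower without stage 9 A (-3.28, adjusted p = 0.000177) and with no filter on low counts (-1.80, adjusted p = 0.0451). For socs3 and tfap2e.S stage 9 of experiment B was the highest of the 4 libraries, and a cause was not tested.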

How the data were processed

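Poly-A RNA of animal cap explants was prepared with a TruSeq kit that keeps no strand information and sequenced as 100 bp paired ends, per the labels' protocols. The deposited values are raw counts per gene, 1 file per library. The submitters' processing notes list FastQC 0.11.5, STAR 2.6.0b-1, featureCounts 1.6.3 and DESeq2 1.22.1; the genome build, annotation and counting settings are not given in the sources used here. Of the counts from 2 to 9 in tested genes of the 4 libraries, 77.7% were even, against 52.5% to 54.9% of counts over 50, as when both mates of a pair are counted, so a floor of 3 counts can stand for fewer fragments. Floors and bounds leave out the spread between libraries, as for nfkb1.S, with 1.44 and 5.91 CPM at stage 9. The floor of 3 counts is a set threshold and not an upper limit on the true level.

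Genes with enough counts (edgeR's filterByExpr by stage) were tested with edgeR 4.0.16 in R 4.3.3: quasi-likelihood fit, TMM scaling, stage and experiment letter as terms, all 8 libraries, Benjamini-Hochberg adjustment over 28490 genes. The block followed the pairing by letter that defines the comparison; deviations of same-lettered libraries from their stage means correlated at 0.374 for stages 12.5 and 9 and at 0.374 to 0.597 over the 6 pairs of stages. The residual degrees of freedom were 3. The A and B libraries of stage 12.5, and those of stage 9, differed beyond sampling noise. On simulated counts with 50 genes for each size of change, the fit called 38%, 62%, 78% and 86% of changes of 1, 2, 3 and 4 on the log2 scale. All other genes of the 28490 simulated were left unchanged, whereas 69.1% of genes were called in the data. The adjustment of p-values is stricter where few genes change, so these shares do not give the share of changes missed here. Figures used Python 3.11.15 and matplotlib 3.10.9.

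The gene lists and the comparison were chosen with earlier results of these data known. Genes were named by several rules. The 8 largest called rises and falls were taken among genes with a gene name rather than a LOC symbol. They had the same direction in A and B and a mean of at least 10 CPM at the higher stage. They also had more than 3 counts in each library of the lower stage. The 5 most abundant genes with a gene name were taken at each stage. In each list the called member with the largest rise and fall was taken under the same conditions at 5 CPM. Every pair of egg and later forms and the markers were included. So were the 8 highest genes with a gene name among those silent at either end. Alternatives were the fit without the block, the 4 libraries alone, other scalings and filters, DESeq2 1.42.0 and leaving out each library. Sequences and coordinates were not used here. A few genes that these rules name are not reported here.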

Additional observations from a re-analysis of the deposited data

How the results depend on the processing

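The numbers of genes called, called higher and called lower stayed within 1.5 times their reported values (19692, 10338 and 9354) under all 16 alternatives. Without the replicate block 17329 genes were called (9097 higher, 8232 lower), 17325 of them shared with the paired fit. With the 4 libraries of stages 12.5 and 9 alone, 16749 of 26479 were called. Library size as the only scaling gave 8620 higher and 10869 lower genes, or 44.2% higher, against 52.5% with TMM. RLE scaling gave 19719 calls, no filter 19917, a minimum of 1 CPM 16515 and DESeq2 19937. Leaving out 1 library gave 17556 to 19154 calls, 9055 to 9961 higher and 8501 to 9193 lower. Of the log2 fold changes of single genes tallied under the alternatives, 2574 kept their direction and side of the threshold, 95 lost the call and 10 gained one. The cause was not tested. The tally leaves out some genes discussed above, since more gained calls than this are stated beside single genes. Some named genes lost their call without the block, as stated beside them. Over all lists and alternatives, 66 list medians moved by more than the spread between experiments A and B and 286 did not, and 10 counts of members called higher and 8 of members called lower changed by over 1.5 times, while 342 and 344 did not. With library size as the only scaling the median of all genes tested was -0.18, against 0.14 as reported, and list medians were lower with it, as for BMP signalling (0.14), meiotic and mitotic genes (-0.80) and the Notch pathway (0.50). With 2 libraries a stage, changes of 1 on the log2 scale were often missed in the simulation. Few genes were changed in it, so it does not give the share missed in this comparison.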
